A study of Arabidopsis thaliana with 128 samples.

Results

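The genes described here are 8 Arabidopsis genes whose transcripts are known as markers of sugar starvation: ASN1 (also DIN6, AT3G47340), SEN1 (also DIN1, AT4G35770), DIN10 (AT5G20250), BCAT2 (AT1G10070), TPS8 (AT1G70290), TPS9 (AT1G23870), TPS10 (AT1G60140) and TPS11 (AT2G18700). They were chosen by name, with earlier results of these data known, and all 8 were found among the 28775 genes measured. No treatment in the study changed the sugar supply, so whether the 8 transcripts answered to sugar could not be checked in these data, and the name is used as background.

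Plants that run short of sugar, as in a long night, switch from growth to the breakdown of their own reserves. The kinase SnRK1, with the subunits KIN10 and KIN11, drives part of this switch, and the sugar signal trehalose 6-phosphate holds it back. Several DIN (dark-inducible) genes are read as its markers. ASN1 makes asparagine, a nitrogen-rich amino acid that is stored and moved when carbon is scarce. SEN1 is a marker of darkness and leaf senescence. DIN10 belongs to the raffinose synthase family, and BCAT2 is a branched-chain amino acid aminotransferase of the chloroplast. TPS8 to TPS11 encode class II trehalose-phosphate synthase-like proteins, most of which show no synthase activity of their own, and their transcripts are known to rise in carbon starvation and to fall when sucrose is supplied.

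The study measured RNA of whole seedlings after transcription had been stopped with cordycepin, an adenosine analogue that ends RNA chains. Seedlings were kept for 5 d on 0.5X MS medium with 0.5% sucrose at 22 °C under constant light, so the controls were neither dark-grown nor without sugar. The 4 genotypes combined the presence or loss of VCS, the scaffold of the mRNA decapping complex, with that of SOV, a 3′ to 5′ exoribonuclease: WT here means VCS SOV, which is Col-0 carrying the SOV allele of L.er; sov is Col-0 itself, which lacks a working SOV; vcs is vcs-7 carrying the same L.er allele; and vcs sov is vcs-7. Batches of 50 to 60 seedlings per genotype and replicate were vacuum-infiltrated with 1 mM cordycepin and sampled at 8 times between 0 and 480 min (7.5, 15, 30, 60, 120 and 240 min lying between), with 4 biological replicates each, which gave 32 groups. The 2 lines with SOV both depend on the added L.er allele, and the labels do not say what drives it or how many lines were used. Because each library holds RNA of many tissues, fewer cells of a type and less RNA per cell cannot be told apart.

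Levels are given as nuclear RPM, the RPM of a gene divided by the share of reads that fell in nuclear genes. Libraries held 11.48 to 37.35 M reads in genes, of which 5.245 to 24.1 M were nuclear, so 3 reads stood for 0.1245 to 0.572 nuclear RPM, and the lowest read count of any of the 8 genes in a library was 9 (BCAT2). At 0 min nuclear genes took a mean of 73.46% of reads in vcs sov and 63.23% in vcs, but 51.25% in sov and 49.09% in WT. The VCS transcript was at 7.11 ± 0.662 nuclear RPM in vcs and 12.4 ± 0.864 in vcs sov, while WT had 134.8 ± 16.1 and sov 130.1 ± 6.79 (SD, n = 4), in the direction of the labels. The SOV transcript was lowest in sov, at 41.0 ± 9.51, while WT had 201.6 ± 36.0, vcs sov 247.8 ± 18.8 and vcs 817.9 ± 80.4. It was thus lower in sov than in WT and in vcs sov than in vcs, but vcs sov was not below WT. Its level alone therefore does not check the SOV label of vcs sov against WT. The summed level of 11 markers of green tissue at 0 min had a mean of 18297 nuclear RPM in vcs sov (range 16014.6 to 20976) and 33160 in vcs (29682 to 39016), while sov had 42502 (36904.3 to 50228.9) and WT 40774 (36636 to 44258.4). That of 6 xylem markers had means of 465.0, 218.1, 163.6 and 158.0 in the same order. RBCS1A alone made up much of the green tissue sums, at means of 8999 in vcs sov, 22282 in vcs, 19540 in sov and 19829 in WT. Its mean was not lower in vcs than in WT, while that of every other green tissue marker was. No marker of these lists was at 0 reads in all libraries, and the part of tissue make-up in the results was not tested.

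The regions just before 5 of the genes, ASN1 and the 4 TPS genes, are shown because factors that act below SnRK1 are known to bind ACGT cores. Whether these regions bear on any difference between the genes was not tested. The 250 bases before each annotated start were read from the RefSeq assembly TAIR10.1, and each is written 5′ to 3′ on the strand of its gene, with capitals for a motif match and lower case elsewhere. The motifs searched on both strands were the core ACGT and its extension CACGTG, which both read the same on either strand, then ACTCAT with its reverse complement ATGAGT, and lastly TATCCA with its reverse complement TGGATA.
ASN1, chr3:17441432-17441681, minus strand: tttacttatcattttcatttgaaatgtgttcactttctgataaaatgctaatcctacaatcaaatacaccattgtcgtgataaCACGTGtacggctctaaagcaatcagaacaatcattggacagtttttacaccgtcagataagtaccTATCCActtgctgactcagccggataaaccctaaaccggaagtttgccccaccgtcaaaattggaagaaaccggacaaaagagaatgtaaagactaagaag
TPS8, chr1:26474834-26475083, minus strand: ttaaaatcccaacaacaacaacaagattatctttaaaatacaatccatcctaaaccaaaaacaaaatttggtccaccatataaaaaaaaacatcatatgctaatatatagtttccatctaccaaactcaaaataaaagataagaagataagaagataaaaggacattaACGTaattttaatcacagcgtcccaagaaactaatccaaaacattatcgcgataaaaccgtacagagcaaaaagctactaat
TPS9, chr1:8431929-8432178, plus strand: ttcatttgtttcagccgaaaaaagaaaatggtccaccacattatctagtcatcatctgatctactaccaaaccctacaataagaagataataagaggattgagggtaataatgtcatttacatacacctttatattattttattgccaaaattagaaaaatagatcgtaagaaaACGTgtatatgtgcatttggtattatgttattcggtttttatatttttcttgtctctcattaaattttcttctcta
TPS10, chr1:22181741-22181990, minus strand: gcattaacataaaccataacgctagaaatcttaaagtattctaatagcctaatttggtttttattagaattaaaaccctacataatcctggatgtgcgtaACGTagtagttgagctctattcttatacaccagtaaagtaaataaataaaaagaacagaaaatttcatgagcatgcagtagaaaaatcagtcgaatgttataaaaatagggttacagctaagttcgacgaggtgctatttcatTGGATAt
TPS11, chr2:8108648-8108897, plus strand: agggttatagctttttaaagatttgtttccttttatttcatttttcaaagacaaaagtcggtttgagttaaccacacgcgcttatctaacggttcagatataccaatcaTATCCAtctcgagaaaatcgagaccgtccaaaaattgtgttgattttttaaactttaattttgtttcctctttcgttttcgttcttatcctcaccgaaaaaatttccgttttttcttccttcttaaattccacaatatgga
Among the 8 genes, 1 window held CACGTG, that of ASN1, at 167 bases before the start, against 6.49% of the 27443 windows of protein-coding genes. The shorter core ACGT, which lies inside CACGTG, was in 6 of 8 windows, against 44.1% of all. TATCCA, on either strand, was in 3 of 8, those of ASN1, TPS10 and TPS11, against 13.6% of all. ACTCAT was in 0 of 8, against 12.3% of all. These are matches of letters in a fixed window and not binding sites.

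The gene bodies lie on 4 chromosomes. ASN1 spans chr3:17437840-17441431 (minus strand), SEN1 chr4:16944878-16946266 (plus), DIN10 chr5:6833564-6836862 (plus) and BCAT2 chr1:3288087-3290471 (plus). TPS8 spans chr1:26470795-26474833 (minus), TPS9 chr1:8432179-8435656 (plus), TPS10 chr1:22176934-22181740 (minus) and TPS11 chr2:8108898-8112010 (plus). BCAT2 overlaps AT1G10090 on the other strand by 161 bases, and AT1G10090 had 101152 reads over all libraries against 12742 of BCAT2, so the BCAT2 level is uncertain to the extent that the counting ignored strand. DIN10 overlaps AT5G20260 by 82 bases and ASN1 overlaps AT3G47341 by 11 bases, but these neighbours had 40 and 2 reads in all.

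Before cordycepin, the TPS genes were highest in vcs sov, and TPS8, TPS9 and TPS10 were also above WT in vcs. TPS9 stood at 100.9, 105.8, 108.7 and 98.1 nuclear RPM in the 4 WT libraries, at 113.1, 93.9, 118.2 and 89.9 in sov, at 117.7, 121.6, 151.5 and 132.4 in vcs and at 212.7, 268.9, 234.9 and 251.5 in vcs sov. Every vcs sov library lay above every library of the other genotypes, and every vcs library lay above every WT library, though the vcs and sov ranges touched. TPS10 stood at 79.6, 88.6, 71.0 and 67.9 in WT, at 62.3, 66.3, 88.2 and 76.9 in sov, at 87.8, 118.8, 116.4 and 106.7 in vcs and at 166.4, 180.8, 193.7 and 196.8 in vcs sov. Here the lowest vcs library fell inside the WT range and vcs sov stood clear of all others. TPS8 stood at 71.3, 81.4, 78.7 and 75.4 in WT, at 81.5, 80.5, 81.3 and 59.1 in sov, at 94.7, 104.0, 127.95 and 99.7 in vcs and at 121.6, 182.8, 180.9 and 183.6 in vcs sov. TPS11 stood at 64.2, 101.4, 82.3 and 80.2 in WT, at 69.1, 91.8, 93.4 and 65.9 in sov, at 68.9, 59.8, 75.03 and 71.2 in vcs and at 104.3, 186.4, 155.5 and 163.6 in vcs sov. For TPS8 the vcs libraries lay above WT and 1 of them reached into the vcs sov range. For TPS11 the vcs libraries overlapped those of WT and sov, with 1 of them below both ranges.

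Against sov, vcs sov had more TPS10 (log2 difference 1.33, SE 0.12, limma adjusted p = 1.4e-08), TPS9 (1.22, SE 0.10, 7.67e-09), TPS8 (1.13, SE 0.13, 5.89e-07) and TPS11 (0.91, SE 0.17, 0.000118). Against WT, vcs had more TPS10 (0.48, SE 0.12, limma adjusted p = 0.00283), TPS8 (0.46, SE 0.13, 0.00828) and TPS9 (0.33, SE 0.10, 0.0133), while TPS11 differed by −0.24 (SE 0.17, 0.251). These 3 smaller differences depended on the scaling: with each library centred on the median of its nuclear genes TPS8 had an adjusted p of 0.154, TPS9 of 0.396 and TPS10 of 0.0576, and TPS11 passed in the other direction (−0.46, 0.0334). In edgeR on the recovered reads, TPS8 (adjusted p = 0.0939) and TPS9 (0.236) did not pass, and TPS11 did (−0.44, 0.0458). Without replicate 3, TPS8 and TPS9 missed the threshold (limma adjusted p = 0.0689 and 0.0701), without replicate 4 TPS9 did (0.0732), and without replicate 1 TPS11 passed as lower (−0.35, 0.0474).

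ASN1 was lower in vcs than in WT and than in vcs sov. It stood at 50.3, 19.4, 36.4 and 31.998 nuclear RPM in WT, at 12.3, 35.6, 24.3 and 24.5 in sov, at 18.3, 9.1, 17.4 and 15.9 in vcs and at 23.3, 44.5, 43.5 and 36.2 in vcs sov. All vcs libraries were below all WT libraries, by a narrow margin, and below all vcs sov libraries, while vcs sov overlapped WT and sov. The difference of vcs from WT was −1.13 (SE 0.34, limma adjusted p = 0.0132), that of vcs sov from sov 0.65 (SE 0.34, 0.102) and that of vcs sov from vcs 1.26 (SE 0.34, 0.00602). The vcs against WT call was lost without replicate 3 (0.0591), without replicate 4 (0.0732) and with RPM as deposited (−0.76, 0.0582). The vcs sov against sov difference passed with RPM as deposited (1.14, 0.0065) and without replicate 2 (0.76, 0.0311).

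SEN1 and BCAT2 were both higher in vcs sov than in sov and in vcs. SEN1 stood at 77.2, 40.3, 47.6 and 46.6 nuclear RPM in WT, at 21.7, 51.8, 40.7 and 35.8 in sov, at 84.7, 31.3, 60.9 and 49.3 in vcs and at 131.3, 104.8, 226.4 and 198.3 in vcs sov. BCAT2, the least abundant of the 8 on this scale, stood at 8.7, 2.1, 5.9 and 5.1 in WT, at 2.6, 2.3, 4.9 and 4.8 in sov, at 4.4, 2.0, 7.8 and 5.0 in vcs and at 9.5, 15.2, 13.0 and 18.1 in vcs sov. For both genes the vcs sov libraries lay above all others, and the WT, sov and vcs libraries overlapped. SEN1 exceeded sov by 2.12 (SE 0.34, limma adjusted p = 5.9e-05) and BCAT2 by 1.82 (SE 0.39, 0.000623), whereas vcs differed from WT by 0.05 for SEN1 (SE 0.34, 0.915) and −0.15 for BCAT2 (SE 0.39, 0.77).

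DIN10 went the other way. It stood at 397.0, 347.5, 423.4 and 328.3 nuclear RPM in WT, at 438.4, 384.8, 424.1 and 354.7 in sov, at 324.6, 330.1, 463.2 and 301.0 in vcs and at 144.6, 241.1, 275.6 and 216.0 in vcs sov. The vcs sov libraries lay below all others, and the other genotypes overlapped. The vcs sov level differed from that of sov by −0.90 (SE 0.17, limma adjusted p = 0.000114), and that of vcs from WT by −0.09 (SE 0.17, 0.682).

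**Figure D1:**
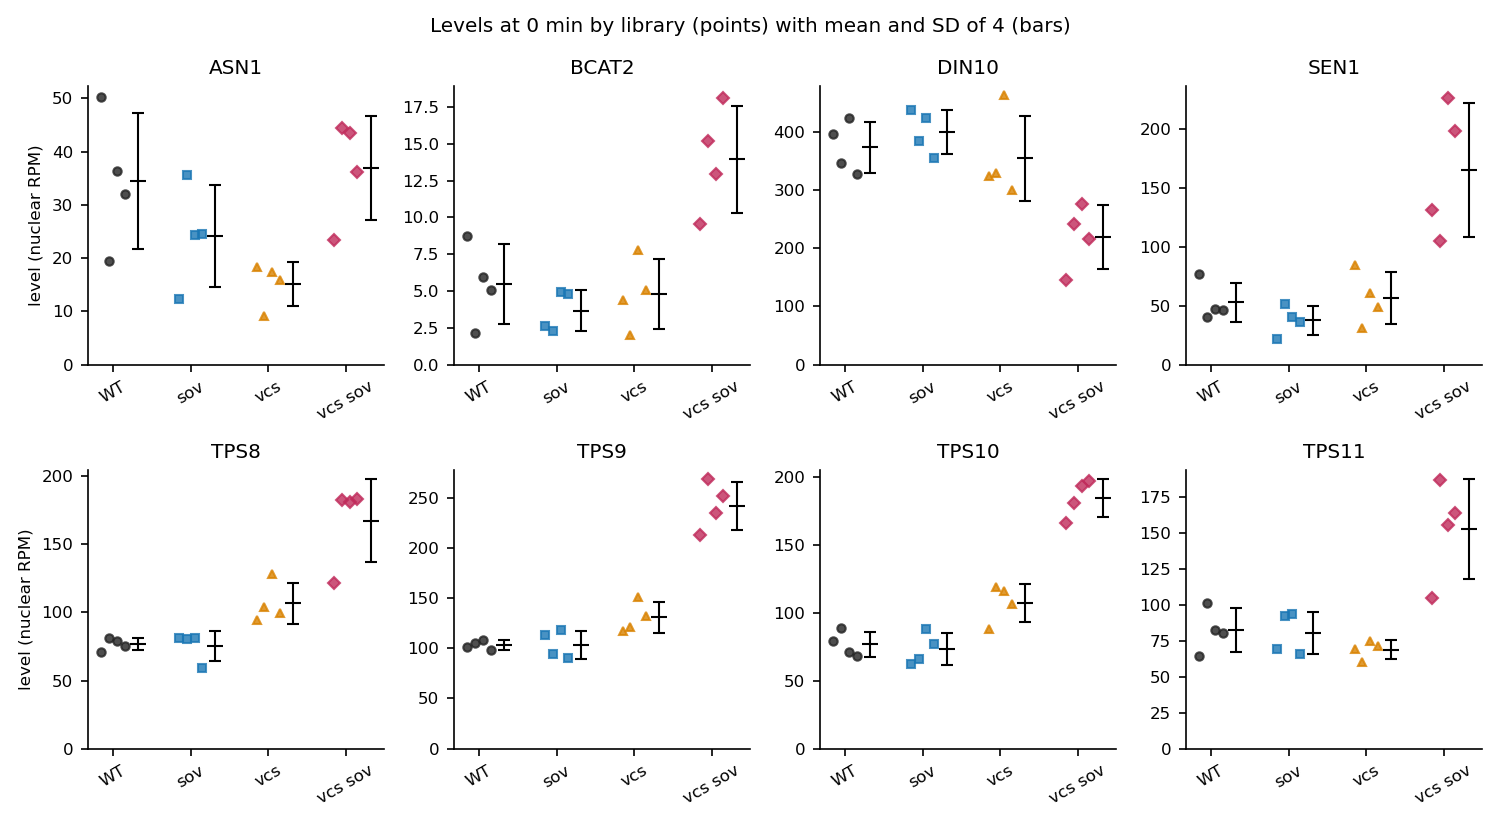
Levels at 0 min in nuclear RPM (vertical axis, from 0) of each of the 8 genes in the 4 genotypes, with 1 point per library and bars for the mean and SD of 4. Apart from DIN10, vcs sov has the highest mean, with TPS9 at a mean of 242.0 against 103.8 in sov. For ASN1 its mean is 36.9 against 34.5 in WT, and its libraries overlap those of WT and sov. DIN10 is lowest in vcs sov, at 219.3 against 400.5 in sov.

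Counted over the 8 genes, vcs sov exceeded sov for 6 and was below it for 1, where 42.5% of the 19343 genes tested were called higher and 27.1% lower. In vcs against WT 3 were higher and 1 lower, against 36.3% and 13.1% of all genes, a share of higher calls near the background. Between vcs sov and vcs, 7 were higher and 1 lower, against 26.6% and 28.8%. Both comparisons of vcs sov use the same vcs sov libraries. Between sov and WT 0 of 8 passed in limma, edgeR or DESeq2, 0 had an unadjusted p under 0.05, and 0.0414% of all genes were called. The sov minus WT differences ran from −0.52 for ASN1 (SE 0.34) to 0.10 for DIN10 (SE 0.17), so that for ASN1, SEN1 and BCAT2 differences of this size were within the spread of the libraries.

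The effect of vcs differed with the SOV background for all 8 genes. The interaction, which is the vcs sov against sov difference less the vcs against WT difference, was positive for 7 and negative for 1, against 19.1% and 21.0% of all genes. It was 2.07 for SEN1 (SE 0.48, limma adjusted p = 0.00355), 1.98 for BCAT2 (SE 0.55, 0.01), 1.78 for ASN1 (SE 0.48, 0.00902) and 1.15 for TPS11 (SE 0.24, 0.0011). It was smaller for TPS9 (0.89, SE 0.15, 0.000139), TPS10 (0.85, SE 0.17, 0.000652) and TPS8 (0.67, SE 0.19, 0.00946), and it was −0.81 for DIN10 (SE 0.24, 0.0112). The median of the 8 was 1.02 and that of all genes −0.02. Without replicate 4, ASN1 (0.0612), BCAT2 (0.0549) and TPS8 (0.098) no longer passed, without replicate 3 ASN1 did not (0.0571), and without replicate 2 TPS8 did not (0.0733).

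The median of all genes was itself shifted in these comparisons, by 0.17 in vcs against WT and 0.17 in vcs sov against sov. For vcs against WT the split over all genes was 7022 higher and 2528 lower on nuclear RPM, 13071 and 842 with RPM as deposited, 3937 and 5155 after median centring, and 4478 and 4479 in edgeR. With RPM as deposited the split also moved in vcs sov against vcs, from 5144 higher and 5580 lower to 7945 and 3450, and in the interaction, from 3699 and 4068 to 5273 and 2790. For vcs sov against sov it was 8216 and 5243 on nuclear RPM, 12932 and 2376 with RPM as deposited, 6375 and 7085 after centring, and 6821 and 6709 in edgeR. Under each of these the 7 calls in vcs sov against sov were kept, and the median of the 8 genes was 1.18 on nuclear RPM.

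Other genes of the same pathways were counted for the same comparisons. Of 11 further DIN genes and SnRK1 markers, vcs sov exceeded sov for 6 and was below it for 3, and vcs exceeded WT for 5 and was below it for 4. The shares of all genes to read these and the next counts against are 42.5% higher and 27.1% lower in vcs sov against sov, and 36.3% and 13.1% in vcs against WT. DIN2, a beta-glucosidase gene, was at 17.0 ± 4.47 nuclear RPM in vcs sov and at 0.534 ± 0.0868 in sov (SD, n = 4; log2 difference 4.04, limma adjusted p = 1.16e-10). DYL1, a dormancy-associated gene, was higher by 2.64 (2.21e-10) and DIN9, a mannose-6-phosphate isomerase gene, by 1.85 (8.44e-11), while DIN11 differed by −2.06 (1.39e-05). The list thus split in direction, as the 8 genes did.

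Of 7 genes for subunits of the SnRK1 complex, 5 were higher in vcs sov against sov and 4 in vcs against WT, with none lower. The genes of its activating kinases, GRIK1 and GRIK2, were listed at 0 and not tested. KIN10, a catalytic subunit, was at 130.3 ± 11.2 nuclear RPM in vcs sov and 99.3 ± 9.56 in vcs, while sov had 65.6 ± 2.39 and WT 62.9 ± 6.89 (SD, n = 4). Its log2 difference was 0.66 in vcs against WT (limma adjusted p = 1.51e-05) and 0.98 in vcs sov against sov (2.75e-08). Among the other trehalose genes, 8 of 12 were higher and 3 lower in vcs sov against sov, and 4 and 2 in vcs against WT. TPPE (1.68, 4.45e-09) and TPPI (1.52, 0.000238), which encode trehalose-phosphate phosphatases, and TRE1 (1.38, 4.72e-09), the trehalase gene, were higher in vcs sov, and TPPB (−1.35, 3.66e-05) was lower.

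Genes for the breakdown of branched-chain amino acids, lysine and proline, which BCAT2 belongs with, were higher in 10 of 21 and lower in 4 in vcs sov against sov, near the share of all genes, and 3 and 3 in vcs against WT. AT4G33150 (2.07, limma adjusted p = 3.95e-09) and AT1G21400 (1.28, 4.76e-05) were higher, and ERD5 (−1.09, 1.41e-06), a proline dehydrogenase gene, and BCAT-1 (−1.03, 1.38e-06), the BCAT paralogue, were lower. The remaining asparagine synthetase genes ASN2 (−0.79, 1.37e-06) and ASN3 (−0.94, 1.37e-06) were lower in vcs sov, where ASN1 did not pass. Of 7 other raffinose and galactinol genes tested, 6 were higher in each comparison and none lower, with GolS2, a galactinol synthase gene, at 5.395 (4.7e-12) in vcs sov against sov, opposite to DIN10. The remaining gene of that list, STS, was too low to be tested and stood at 1.09 ± 0.543 nuclear RPM in WT and 1.19 ± 0.568 in sov, while vcs had 0.108 ± 0.124 and vcs sov 0.510 ± 0.313 (SD, n = 4). Of 8 genes known to be induced by sugar, 3 were higher and 1 lower in vcs sov, with BAM5, a beta-amylase gene, at 6.69 (5.61e-13) and TT4, the chalcone synthase gene, at −1.43 (3.26e-06), and 1 was higher and 2 lower in vcs against WT.

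The lists of senescence and of abscisic acid and dehydration genes moved more uniformly. All 7 senescence genes tested were higher in vcs sov against sov and 4 in vcs against WT, with NAP, a senescence regulator, at 3.68 (limma adjusted p = 9.9e-10) and NYE1, which acts in chlorophyll loss, at 2.199 (2.88e-10) in the former. All 12 abscisic acid and dehydration genes were higher in vcs sov and 10 in vcs, with median differences of 5.36 and 1.47. All 11 green tissue markers were lower in vcs sov and 10 in vcs, all 6 xylem markers were higher in vcs sov and 3 in vcs, and of 5 root hair markers 3 were higher and 1 lower in vcs sov and 2 lower in vcs. These changes run beside those of the 8 genes in the same libraries, and their part in them was not tested.

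Between genes, levels can be compared only per length, for which the authors' deposited table gives RPKM at 0 min. In the authors' deposited table DIN10 was the most abundant of the 8 in WT at 54.1 RPKM, followed by SEN1 at 24.3, TPS9 at 14.3, TPS11 at 12.1, TPS8 at 10.3, TPS10 at 9.95, ASN1 at 6.43 and BCAT2 at 1.35. In the authors' deposited table the order in vcs sov was led by SEN1 at 107.1 RPKM, before TPS9 at 48.9, DIN10 at 45.3, TPS10 at 35.0, TPS8 at 33.0, TPS11 at 32.6, ASN1 at 9.82 and BCAT2 at 5.11. SEN1 thus ranked below DIN10 in WT and above it in vcs sov, on values that carry no replicate error. The authors' deposited table also holds DESeq2 results, in which vcs against WT passed for ASN1 (log2 fold change −1.19, adjusted p = 0.00261), TPS10 (0.30, 0.0199) and TPS11 (−0.40, 0.0246) and did not for TPS8 (0.29, 0.0802) or TPS9 (0.16, 0.26).

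After cordycepin, the 8 transcripts did not all follow the same course. In WT and sov the TPS genes and DIN10 fell to well under their starting level by 120 min, while neither change of ASN1 or BCAT2 passed the test on nuclear RPM. SEN1 passed as lower in sov but not in WT. TPS11 had the largest fall of the 8 in WT and sov, and TPS10 in vcs and vcs sov. At 120 min TPS11 stood at 20.2, 20.9, 19.0 and 19.6 nuclear RPM in WT, at 25.5, 24.2, 19.4 and 13.1 in sov, at 42.9, 36.4, 42.1 and 45.8 in vcs and at 88.3, 154.3, 100.7 and 114.0 in vcs sov. These were 24.3%, 25.7%, 60.8% and 75.002% of the 0 min means. WT and sov overlapped, vcs lay above both, and vcs sov lay above vcs.

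The log2 change of TPS11 from 0 to 120 min was −1.998 in WT (SE 0.18, limma adjusted p = 3.48e-17), −1.96 in sov (7.02e-17) and −0.71 in vcs (0.000626), and in vcs sov it was −0.41 (0.0606), or adjusted p = 0.0011 with the course as a block, 0.0374 without replicate 1 and 0.0423 without replicate 2. TPS10 fell in every genotype: WT and sov dropped by 1.37 and 1.19 (1.23e-19 and 1.95e-16), while vcs dropped by 1.23 (1.04e-16) and vcs sov by 0.56 (3.4e-05). TPS8 also fell in every genotype: WT and sov dropped by 1.36 and 1.16 (limma adjusted p = 8.03e-17 and 8.96e-14), vcs by 0.84 (1.84e-08) and vcs sov by 0.46 (0.00224). In vcs sov these 2 genes were the ones called on nuclear RPM. Scaled to the 50 reference genes of the slopes described below, 7 of 8 were called lower there, with TPS11 at −1.01 (7.85e-07), ASN1 at −0.999 (0.0299), SEN1 at −0.96 (0.00895) and DIN10 at −0.83 (6.59e-05).

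TPS9 fell by 0.91 in WT (limma adjusted p = 7.55e-13), 0.83 in sov (3.19e-11) and 0.48 in vcs (6.16e-05). In vcs sov it stood at 212.7, 268.9, 234.9 and 251.5 nuclear RPM at 0 min and at 223.2, 320.1, 227.9 and 240.1 at 120 min, a change of 0.05 (SE 0.10, 0.716). The level of TPS9 in vcs sov was therefore 104.5% of its start at 120 min and 111.1% at 480 min on this scale, but scaled to the reference genes the change at 120 min was −0.54 (5.43e-05) and after median centring it was 0.30 (0.017). In the authors' deposited table the ratio of TPS9 to 0 min in vcs sov was 0.824 at 120 min and 0.680 at 480 min.

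DIN10 fell by 1.15 in WT (limma adjusted p = 1.02e-07), 1.40 in sov (2.61e-10) and 0.51 in vcs (0.0168), and changed by −0.24 in vcs sov (SE 0.19, 0.313). At 120 min its libraries stood at 189.8, 160.8, 158.0 and 160.8 nuclear RPM in WT, at 171.0, 132.4, 167.7 and 135.0 in sov, at 207.1, 217.6, 280.2 and 284.7 in vcs and at 126.5, 225.4, 223.2 and 167.5 in vcs sov. By then the order of 0 min had changed, with vcs above WT and sov without overlap and vcs sov overlapping them. SEN1 fell by 1.05 in sov (0.00533). Its change was −0.68 in WT (SE 0.34, 0.0781, or 0.00812 with the course as a block), −0.51 in vcs (0.203) and −0.36 in vcs sov (0.407). ASN1 changed by 0.60 in WT and 0.20 in sov, and by −0.52 in vcs and −0.41 in vcs sov, with an SE of 0.45 in each, and BCAT2 by −0.57 to 0.19 with an SE of 0.43, and none of these passed on nuclear RPM. Scaled to the reference genes, ASN1 in vcs (−1.15, 0.0126), BCAT2 in vcs (−1.14, 0.00718) and BCAT2 in sov (−0.84, 0.046) passed as lower, as did SEN1 in WT (−1.35, 0.000271) and in vcs (−1.15, 0.00168).

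**Figure D2:**
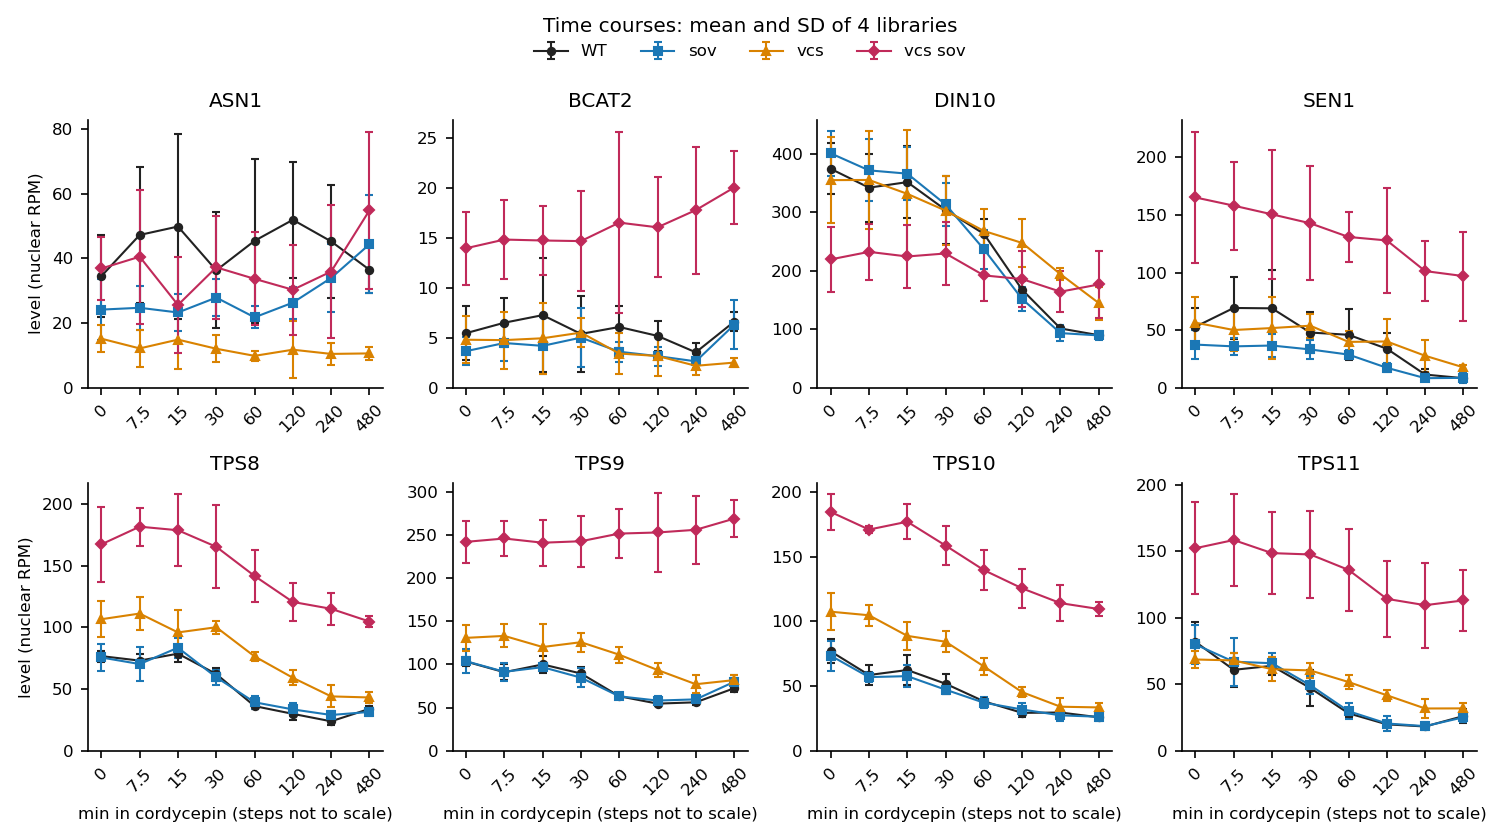
Mean level in nuclear RPM (vertical axis, from 0) against min in cordycepin (horizontal axis, times evenly spaced and not to scale) for the 4 genotypes, with bars for the SD of 4 libraries. TPS8 and TPS10 are lower at 120 min in every genotype, TPS9 in vcs sov is at 104.5% of its start at 120 min on this scale though lower than at the start when scaled to the reference genes, and ASN1 and BCAT2 have wide bars with no common direction.

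Over the 8 genes, 5 were lower at 120 than at 0 min in WT, against 48.5% of the 19855 genes tested, and 6 in sov, against 52.0%. In vcs 5 were lower, against 44.7%, and in vcs sov 2, against 30.8%. None was higher. For WT the median change was −1.03 over the 8 and −0.32 over all genes, for sov −1.11 and −0.37, for vcs −0.55 and −0.29, and for vcs sov −0.39 and −0.16. The scaling moves such counts: for WT the split over all genes was 2465 higher and 9631 lower on nuclear RPM, 8242 and 4276 after median centring, 5422 and 6428 in edgeR and 222 and 18011 scaled to the reference genes, with the median of all genes at −0.95 on this last scale and 0.21 after centring. The split went from 2512 and 10321 to 8444 and 4376 on centring in sov, from 1988 and 8884 to 6945 and 4035 in vcs, and from 2227 and 6123 to 5739 and 3312 in vcs sov. After centring, DIN10 (adjusted p = 0.691), TPS9 (0.656) and TPS11 (0.193) no longer passed in vcs, nor TPS8 in vcs sov (0.172), and ASN1 passed as higher in WT (1.13, 0.0267). In edgeR, DIN10 (0.293) and TPS9 (0.112) in vcs and SEN1 in sov (0.0573) did not pass. TPS8 in vcs sov did not pass without replicate 3 (0.0577), nor DIN10 in vcs without replicate 2 (0.0924) or 3 (0.0749).

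Within the first 15 min none of the 8 passed in any genotype in limma on nuclear RPM or in edgeR, both without a block for the course. Of all genes, 3.55% and 3.75% were called in WT and sov, and 1.19% and 0.468% in vcs and vcs sov. An unadjusted p under 0.05 was found for 1 of the 8 and 2354 of the 19855 genes in WT, 1 and 2558 in sov, 1 and 1143 in vcs, and 0 and 847 in vcs sov. With the course as a block, TPS10 (−0.31, limma adjusted p = 0.0461) and TPS11 (−0.34, 0.0405) passed in WT and TPS10 in sov (−0.35, 0.0175). TPS10 stood at 79.6, 88.6, 71.0 and 67.9 nuclear RPM at 0 min and 48.6, 58.6, 74.4 and 67.8 at 15 min in WT, ranges that overlap.

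Between 120 and 480 min SEN1 and DIN10 fell in WT, sov and vcs, while TPS9 rose in WT and sov on nuclear RPM. At 480 min SEN1 stood at 9.0, 5.1, 9.9 and 9.4 nuclear RPM in WT, at 6.7, 15.0, 6.1 and 6.6 in sov, at 19.5, 14.4, 17.9 and 19.1 in vcs and at 72.3, 70.6, 153.1 and 91.8 in vcs sov. These means were 15.7%, 22.9%, 31.3% and 58.7% of those at 0 min, and vcs sov lay far above the rest. SEN1 fell by 1.91 in WT (SE 0.34, limma adjusted p = 1.18e-06), 1.04 in sov (0.0067) and 1.06 in vcs (0.00624), and changed by −0.41 in vcs sov (0.393). In sov the call was lost without replicate 4 (0.0736), after centring (0.193) and in edgeR (0.269), and in vcs without replicate 4 (0.12) and after centring (0.175). DIN10 fell by 0.89 in WT (2.93e-05), 0.75 in sov (0.000417) and 0.78 in vcs (0.000282), and changed by −0.09 in vcs sov (SE 0.19, 0.755, or −0.43 and 0.0458 scaled to the reference genes). After centring DIN10 did not pass in WT (0.0763), sov (0.28) or vcs (0.214), and in edgeR it did not pass in sov (0.161) or vcs (0.0625).

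TPS9 rose from 53.8, 54.0, 51.9 and 58.9 nuclear RPM at 120 min to 71.5, 72.5, 67.8 and 77.9 at 480 min in WT, and from 61.2, 63.6, 57.5 and 50.4 to 71.0, 89.9, 74.99 and 83.5 in sov. In both genotypes every later library lay above every earlier one. The changes were 0.40 in WT (SE 0.10, limma adjusted p = 0.000586) and 0.45 in sov (0.00013), but scaled to the reference genes they were 0.10 (0.481) and 0.22 (0.103), and with RPM as deposited the change in WT was 0.22 (0.0727). In the authors' deposited table the TPS9 ratio to 0 min in WT was 0.385 at 120 min and 0.368 at 480 min. In vcs TPS9 went from 85.8, 88.9, 96.1 and 103.6 to 86.8, 75.2, 78.5 and 87.0, a change of −0.19 (0.109, or 0.0322 with the course as a block and 0.0454 without replicate 1), which was 0.29 (0.0212) after centring.

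In vcs TPS8 fell by 0.45 (limma adjusted p = 0.0018) and TPS10 by 0.43 (0.000839), and in sov TPS10 fell by 0.27 (0.0367), but after median centring these turned to 0.04 (0.843), 0.05 (0.722) and 0.23 (0.078), so their direction depends on the scale. In edgeR TPS8 and TPS10 in vcs (0.559 and 0.564) and TPS10 in sov (0.311) did not pass, and TPS10 in sov was lost without replicate 2 (0.16) or 3 (0.145). TPS11 changed by 0.37 in WT (0.078, or 0.00272 with the course as a block), 0.32 in sov (0.125, or 0.00846) and −0.39 in vcs (0.0629, or 0.00162). Without replicate 1 it passed in each of these (0.0248, 0.0254 and 0.046), and in vcs also without replicate 2 (0.0325). With the course as a block BCAT2 in sov (0.85, 0.0162) and ASN1 in vcs sov (0.86, 0.0266) also passed, and BCAT2 in sov passed without replicate 1 (0.0375). TPS10 in WT changed by −0.17 (0.188), passed as higher after centring (0.32, 0.00999), and passed as lower with RPM as deposited (−0.34, 0.0109) and scaled to the reference genes (−0.46, 0.00199). After centring TPS8 (0.69, 2.51e-06) and TPS11 (0.86, 0.000111) also passed as higher in WT, and ASN1 (1.20, 0.0248), BCAT2 (1.35, 0.00663), TPS8 (0.41, 0.00442) and TPS11 (0.82, 0.00026) in sov. Over the 8 genes, 1 was higher and 2 lower in WT, against 6.72% and 53.6% of all genes, and 1 and 3 in sov, against 5.96% and 52.9%. In vcs 4 were lower, against 52.0%. In vcs sov none passed in limma or edgeR and 0 had an unadjusted p under 0.05 in limma, against 29.9% of all genes called in either direction. On centring, the split over all genes moved from 1335 higher and 10644 lower to 5993 and 3634 in WT, from 1184 and 10511 to 5918 and 3149 in sov, from 1218 and 10326 to 5728 and 3050 in vcs and from 1364 and 4568 to 3621 and 2657 in vcs sov.

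The late change differed between vcs and WT for TPS9 (−0.59, SE 0.15, limma adjusted p = 0.00493) and TPS8 (−0.64, SE 0.18, 0.0136), against 3.79% of all genes called lower. TPS11 differed by −0.75 (SE 0.26, 0.0538, or 0.000203 with the course as a block and 0.0249 without replicate 1). Scaled to the reference genes TPS9 (−0.32, 0.204) and TPS8 (−0.37, 0.225) did not pass. TPS8 was also lost without replicate 1 (0.0611), 2 (0.107) or 3 (0.0731) and with RPM as deposited (0.0518), and TPS9 without replicate 4 (0.0672). Between vcs sov and sov none passed in limma, 2 had an unadjusted p under 0.05 and 1 (TPS9) was called by edgeR, against 21.6% of all genes, and with the course as a block DIN10 (0.66, 0.000712) and TPS9 (−0.35, 0.0114) passed, as they did without replicate 1 (0.0421 and 0.0481).

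The apparent decay of each transcript was described by its slope from 0 to 120 min in each of the 16 courses, in log2 units per h. Each library was first scaled to the 50 genes with the highest unscaled slopes. Unscaled slopes of this reference set ran from 0.112 to 0.515 for WT and from 0.134 to 0.556 for sov. For vcs the lowest was 0.068 and the highest 0.564. The range was wider for vcs sov, at −0.085 to 0.988, so the lowest reference slope was negative there. Median reference slopes were 0.231 for WT, 0.223 for sov, 0.200 for vcs and 0.225 for vcs sov. All scaled slopes are therefore relative to these 50 genes. Among them were HSP70, AOX1A, GSTF2, the green tissue marker RBCS1A and KIN2, of the dehydration list. After scaling, the slope of KIN2 itself was lower in vcs sov than in sov (−0.39, limma adjusted p = 0.00646). Whether the set was stable and whether any transcription went on under the drug were not tested. TPS11 had slopes of −1.08, −1.43, −1.34 and −1.33 in the WT courses, −1.01, −1.41, −1.44 and −1.50 in sov, −0.61, −0.67, −0.79 and −0.55 in vcs and −0.43, −0.43, −0.62 and −0.62 in vcs sov. The means correspond to apparent half-lives of 46.4, 44.7, 91.6 and 114.0 min. In WT 2.70% of the 15289 genes tested were steeper. The WT and sov courses overlapped and were all steeper than every vcs and vcs sov course.

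TPS8 was the next steepest in WT, with apparent half-lives of 55.4 and 59.3 min in WT and sov, and of 80.5 and 101.8 min in vcs and vcs sov. For TPS10 they were 62.4, 66.5, 65.5 and 103.1 min, where the vcs difference from WT did not pass. For TPS9 they were 74.8, 76.5, 111.1 and 218.2 min, the widest range among the 4 TPS genes. For DIN10 they were 67.2, 55.9, 106.6 and 128.2 min, for SEN1 76.8, 68.0, 110.1 and 125.2 min, and the medians of all genes were 123.5, 112.2, 141.3 and 167.9 min. ASN1 was flat by comparison in WT, with slopes of −0.16, 0.00, −0.11 and −0.32 and 93.9% of genes steeper, and its courses scattered from −0.94 to −0.18 in vcs. BCAT2 did not reach the 2 RPM in every genotype that the slopes required. With the wider filter of 1 RPM in a genotype, its apparent half-lives were 164.4, 129.4, 102.8 and 268.0 min, and the adjusted p-values of its 5 limma comparisons ran from 0.0899 to 0.909.

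Slopes were flatter in vcs than in WT for TPS11 (difference 0.64 log2 per h, SE 0.09, limma adjusted p = 6.03e-05), TPS8 (0.34, SE 0.08, 0.0042), DIN10 (0.33, SE 0.06, 0.000611) and TPS9 (0.26, SE 0.06, 0.00322). TPS10 (0.05, SE 0.09, 0.763), SEN1 (0.24, SE 0.10, 0.114, or 0.0336 without replicate 3) and ASN1 (−0.35, SE 0.17, 0.165) did not pass. With 20 reference genes ASN1 passed as steeper (−0.34, 0.0136) and SEN1 as flatter (0.25, 0.0429), and SEN1 also passed over 0 to 240 min (0.39, 0.000569). That is 4 of 7 genes, against 18.2% of all genes called flatter. In vcs sov against sov 6 of 7 were flatter, against 47.6%, with TPS11 at 0.81 (9.61e-07), DIN10 at 0.61 (8.06e-08), TPS9 at 0.51 (4.4e-07), TPS8 at 0.42 (0.000205), SEN1 at 0.40 (0.00387) and TPS10 at 0.32 (0.00648), and ASN1 at −0.13 (SE 0.17, 0.573) the exception.

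Between vcs sov and vcs, TPS10 (0.33, limma adjusted p = 0.0224) and TPS9 (0.27, 0.00742) were flatter, which is 2 of 7 against 10.5%. Both were lost without replicate 2 (TPS10 0.242, TPS9 0.154) or 3 (0.0871 and 0.0609) and over 0 to 60 min (0.437 and 0.358), and TPS9 also with 20 reference genes (0.14). Between sov and WT no slope passed in limma for the 7 genes, and 0% of all genes were called. An unadjusted p under 0.05 was found for 1 of the 7 and for 1090 of the 15289 genes. In the interaction none of the 7 passed, and 6.10% of all genes were called in either direction. An unadjusted p under 0.05 was found for 3 of the 7 and for 3638 of the 15289 genes. The interaction of DIN10 (0.28, adjusted p = 0.0714) passed on nuclear RPM without reference genes (0.0397), with RPM as deposited (0.00535) and with 200 reference genes (0.0325). That of TPS9 (0.25, 0.0898) passed with RPM as deposited (0.00987) and with 200 reference genes (0.0329), and that of TPS10 (0.27, 0.199) with RPM as deposited (0.0454) and over 0 to 240 min (0.0227). The median slope difference of the 7 was 0.26 in vcs against WT and 0.42 in vcs sov against sov, and that of all genes 0.05 and 0.16. DIN10 in vcs against WT (0.474) and SEN1 in vcs sov against sov (0.832) did not pass over 0 to 60 min.

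**Figure D3:**
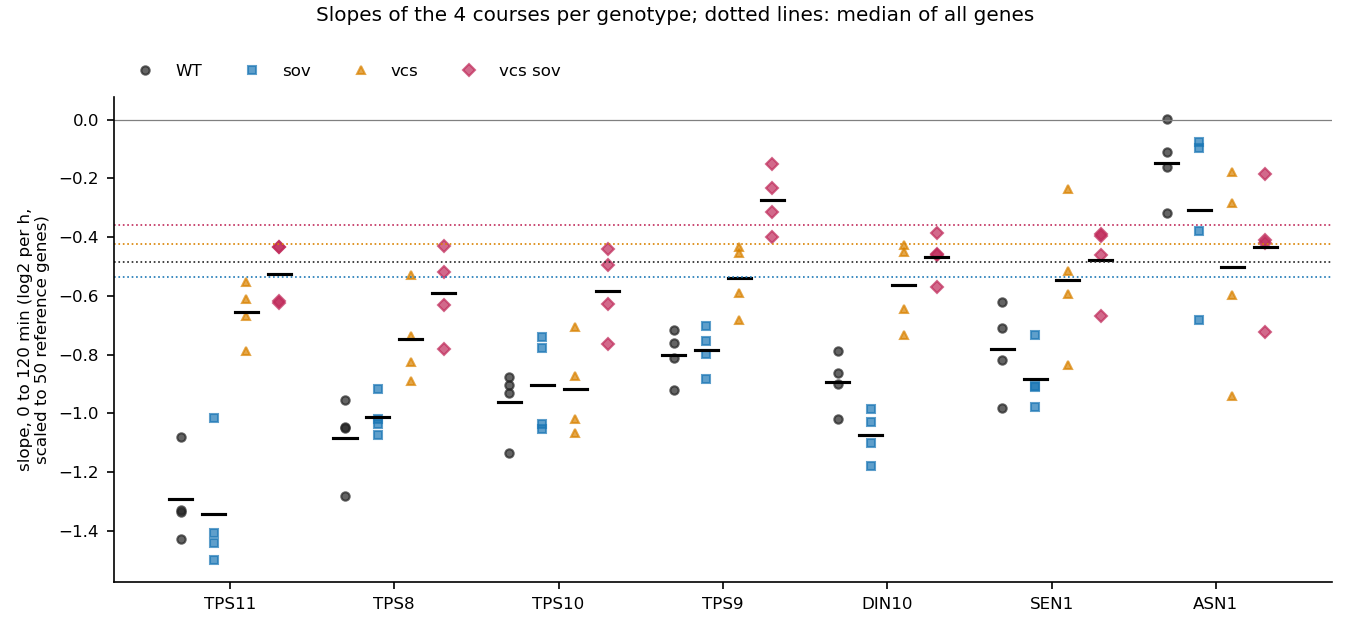
Slope from 0 to 120 min in log2 units per h (vertical axis, scaled to 50 reference genes) for 7 genes, with 1 point per course, a black line for the mean of 4 and dotted lines for the median of all genes in each genotype. TPS11 in WT and sov is steepest, near −1.3, and its vcs and vcs sov courses lie between −0.79 and −0.43.

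Set beside the levels at 0 min, the slopes went with them for some genes and not for others. In vcs sov against sov, TPS8, TPS9, TPS10, TPS11 and SEN1 passed as higher in level and as flatter in slope. In vcs against WT, TPS8 and TPS9 passed as both, though their levels depended on the scaling. TPS11 had the largest slope difference in vcs. Its level there differed by −0.24 on nuclear RPM, which did not pass, and passed as lower after centring and in edgeR. TPS10 had a higher level in vcs on nuclear RPM, lost on centring, and a slope difference that did not pass. DIN10 had flatter slopes in both vcs genotypes with a lower level in vcs sov. Among further DIN genes and SnRK1 markers 7 of 9 had flatter slopes in vcs sov than in sov, and 2 of 9 in vcs than in WT. Of the 4 C-group bZIP genes with reads, factors that act below SnRK1, 3 were flatter in each of these. The shares of all genes called flatter were 47.6% in vcs sov against sov and 18.2% in vcs against WT. The count of 2 of 9 is near the latter share. In level at 0 min, these bZIP genes split in direction. BZIP9 (1.21, limma adjusted p = 1.21e-05), BZIP25 (0.30, 0.00784) and BZO2H1 (0.25, 0.0406) were higher in vcs sov than in sov. BZO2H3, the gene of bZIP63, was lower in vcs sov than in sov at 0 min, at 26.2 ± 4.76 against 64.9 ± 12.8 nuclear RPM (SD, n = 4; log2 difference −1.29, limma adjusted p = 6.13e-07).

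Replicate libraries of the same group differed more for ASN1, BCAT2 and SEN1 than for the TPS genes. The pooled within-group SD on the log2 scale was 0.64 for ASN1, 0.62 for BCAT2 and 0.49 for SEN1, and 66, 78 and 197 of the 14878 genes of at least 5 nuclear RPM had a larger one. It was 0.27 for both DIN10 and TPS11, with 19.1% and 20.9% of genes above them, and 0.18 for TPS8, 0.16 for TPS10 and 0.15 for TPS9, below the median of those genes, 0.195. Within 1 group the highest library exceeded the lowest by up to 5.42-fold for ASN1, 9.96-fold for BCAT2 and 3.36-fold for SEN1, but up to 1.53-fold for TPS10.

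Some of these deviations were shared. Over all libraries, which share their normalization and, within a course, their treated batch, the deviations of ASN1 and SEN1 from their group means had Pearson's r = 0.67 and Spearman's rho = 0.66, and r = 0.65 without the 2 libraries farthest from the median of ASN1. By genotype r was 0.84 for vcs, 0.79 for WT, 0.69 for sov and 0.43 for vcs sov. For ASN1 and BCAT2 r was 0.58 (rho 0.57, and 0.56 without the 2), with 0.75 for vcs, 0.66 for WT, 0.21 for sov and 0.68 for vcs sov. The 4 TPS genes correlated with each other at 0.40 to 0.68, and ASN1 with them at −0.10 to 0.38. These values differed by genotype: ASN1 with TPS11 had r = 0.80 for vcs sov, 0.35 for vcs, 0.13 for sov and −0.07 for WT, ASN1 with TPS8 had 0.50 for vcs sov and −0.11 to −0.02 for the others, and TPS8 with TPS11 had 0.79 for vcs sov, 0.81 for sov, 0.45 for vcs and 0.18 for WT. Each genotype's r rests on 4 courses, whose libraries are not independent, and whether r differs between genotypes was not tested. For ASN1, 4 of the 16 courses stayed on 1 side of the group mean at all 8 times and the other courses did not. It was above its group mean at 8 of 8 times in WT course 1, in vcs course 4 and in vcs sov course 3, and at 0 of 8 in vcs sov course 1, where its mean deviation was −1.04. The same vcs sov course was above the group mean at 0 of 8 times for BCAT2, DIN10, SEN1, TPS8, TPS9 and TPS11 too, and vcs sov course 2 at 8 of 8 times for BCAT2, DIN10, TPS8, TPS9 and TPS11 but at 0 of 8 for SEN1. Without replicate 1 no call at 0 min was lost.

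**Figure D4:**
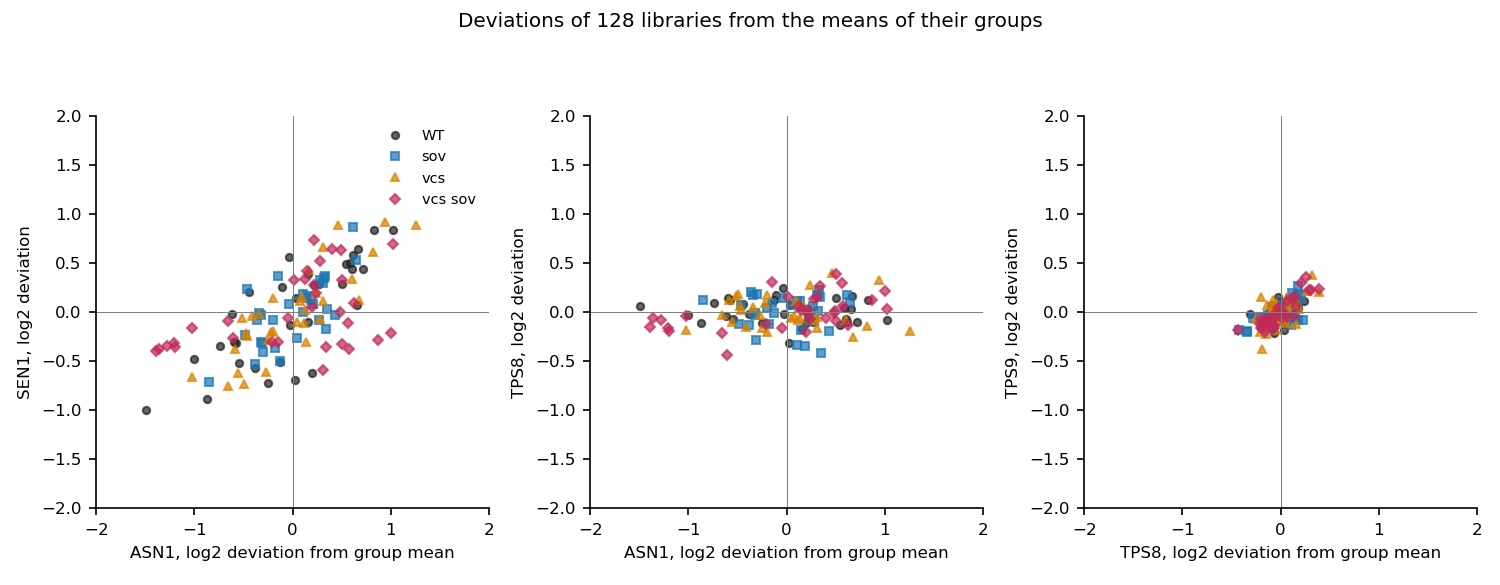
Deviations of all libraries from the mean of their group in log2 units, for ASN1 against SEN1, ASN1 against TPS8 and TPS8 against TPS9, coloured by genotype and on equal axes. ASN1 and SEN1 spread widely along a rising band (r = 0.67), TPS8 varies little along ASN1 (pooled r = 0.14, with 0.50 in vcs sov alone), and TPS8 and TPS9 form a small cloud (r = 0.68).

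Across the 32 group means, as a description over points that share libraries and time courses, the 4 TPS genes correlated at 0.92 to 0.98 and SEN1 with them at 0.85 to 0.92, while ASN1 correlated with them at −0.11 to 0.04. The genes with the most similar profile of group means among 14878 were IRT3 (r = 0.99), MBR2 (0.99) and WES1 (0.98) for TPS10, AT5G59960, AT2G01300 and SBP1 (each 0.98) for TPS8, AT3G11580 (0.99), ATG18C (0.98) and SKIP1 (0.98) for TPS9, and AT1G02610, AT4G01330 and AT5G41900 (each 0.98) for TPS11. They were PTAC15, ECT3 and UMAMIT13 (each 0.98) for DIN10 and AT3G61560, AT2G43240 and AT4G14746 (each 0.97) for SEN1. ASN1 had weaker partners, AOAT2 (0.91), EBP (0.90) and SS2 (0.89), and BCAT2 had AT5G24430, G-TMT and AT4G02120 (each 0.95).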

How the data were processed

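Libraries were made from whole seedlings with plant RiboZero and TruSeq stranded kits, per the labels' protocols. The submitters' processing notes name HTSeq 0.6.1, TopHat2 2.0.12, Bowtie2 2.2.3, FastQC, SAMtools and R 3.1.0, with the TAIR10 build; the strand setting of the counting is not given in the sources used here. According to the labels, the replicate 3 tubes of vcs and vcs sov at 60 min had been swapped, which was put right. The authors deposited RPM for 28775 genes in 128 libraries, nuclear and organellar reads together. In every library 100% of values were whole multiples of 1 read (tolerance 0.001 reads), from which read counts were recovered. Per the file headers, a second table of the authors holds RPKM at 0 min, means of scaled data as a ratio to 0 min, and log2 fold changes with adjusted p-values from DESeq2, with no SD used here.

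RPM were rescaled to nuclear genes (28496 of 28775) and log2(value + 0.5) was tested with limma 3.58.1 (trend, robust) in R 4.3.3, two-sided, with Benjamini-Hochberg adjustment over all genes tested and a threshold of 0.05. Genes needed a mean of 1 RPM, as deposited, in 1 group, and all 8 passed. At 0 min 16 libraries entered, for the time comparisons all 128, and for slopes the 16 courses of 0 to 120 min, over genes that reached a mean of 2 RPM, as deposited, at 0 min in each of the 4 genotypes, which 7 of the 8 passed. The 50 reference genes were those with the highest unscaled slopes among genes of 10 RPM or more. A fold change on the log2(value + 0.5) scale understates that of low genes. Alternatives used edgeR 4.0.16 and DESeq2 1.42.0 on the recovered reads, other scalings, pseudocounts, filters and windows, and left out each replicate. The limma fits for 0 min, for times and for slopes were run on simulated reads. Those simulated libraries were independent, without the shared course effect of the data. The block, edgeR and DESeq2 fits were not run on them. Descriptions used Python 3.11.15, numpy 2.4.6, pandas 2.3.3 and scipy 1.17.1.

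Samples of 1 course came from the same treated seedlings per genotype and replicate, per the labels' protocols, and their deviations from group means correlated (median r 0.31 for WT, 0.33 for sov, 0.50 for vcs and 0.56 for vcs sov), so a block for the course was run for changes over time. Among 192 replicate pairs no 2 libraries agreed within counting noise. The 8 genes, the lists and the tests were chosen with earlier results of these data known. All 8 genes are named in every comparison. From other lists at most 4 genes per comparison, those with the largest change past the threshold, are named, and for similar profiles the 3 genes with the highest Pearson's r over the 32 group means at 5 nuclear RPM or more. Counting floors cover counting error only.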

Additional observations from a re-analysis of the deposited data

Results flagged for a closer look

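The sets of 4 values tested were the libraries of a group or the course slopes of a genotype. In 16 of 284 such sets, 1 value lay far from the other 3 by Dixon's criterion, where chance gives about 1 in 20, or 14.2. All 16 were in groups of libraries. For ASN1 these were vcs at 120 min, replicate 4, at 24.9 nuclear RPM, and vcs sov at 120 min, replicate 1, at 10.1. For BCAT2 it was vcs sov at 60 min, replicate 2, at 30.1. For DIN10 they were WT at 15 min, replicate 1, at 444.3, WT at 120 min, replicate 1, at 189.8, WT at 480 min, replicate 4, at 83.2, and sov at 15 min, replicate 4, at 433.8. For SEN1 they were WT at 30 min, replicate 3, at 22.0, WT at 480 min, replicate 2, at 5.07, sov at 60 min, replicate 4, at 22.9, and sov at 480 min, replicate 2, at 15.0. For TPS8 they were sov at 0 min, replicate 4, at 59.1, and vcs sov at 0 min, replicate 1, at 121.6. For TPS10 it was vcs at 240 min, replicate 1, at 43.7, and for TPS11 WT at 30 min, replicate 2, at 67.2, and sov at 30 min, replicate 4, at 39.0. A count of 16 is close to what chance gives.

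The effect of vcs at 0 min differed between the SOV backgrounds for all 8 genes in limma, by differences of log2 differences of 1.78 for ASN1, 1.98 for BCAT2, −0.81 for DIN10, 2.07 for SEN1, 0.67 for TPS8, 0.89 for TPS9, 0.85 for TPS10 and 1.15 for TPS11. The change from 120 to 480 min differed between vcs and WT by −0.64 for TPS8 and −0.59 for TPS9.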

How the results depend on the processing

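At 0 min the counts of the 8 genes in both comparisons of vcs sov and in that of sov with WT stayed within 1.5 times under every alternative run. The count for vcs against WT, 4, was 2 after median centring and 1 to 5 leaving out a replicate, and that of the interaction, 8, was 5 to 8. The time comparisons moved with the scale. From 120 to 480 min, centring turned TPS10 in WT (0.32), TPS8 (0.41) and TPS10 (0.23) in sov, and TPS8 (0.036), TPS9 (0.29) and TPS10 (0.053) in vcs to higher, edgeR did so for TPS8 (0.34) and TPS10 (0.15) in sov, and scaling to the reference genes turned TPS9 in vcs sov at 120 min to −0.54. By construction, these scalings set the level of different genes to no change. The counts called were 5 under centring and 5 in edgeR for WT from 120 to 480 min, 2 and 3 for vcs from 0 to 120 min, 1 and 1 for vcs from 120 to 480 min, and 1 under centring for vcs sov from 120 to 480 min. Scaled to the reference genes they were 1 for WT and 1 for sov at 15 min, 8 for vcs and 7 for vcs sov from 0 to 120 min (1 to 3 leaving out a replicate for vcs sov), and 3 for vcs sov from 120 to 480 min. With the course as a replicate block they were 2 for WT and 1 for sov at 15 min, and 1 for vcs sov from 120 to 480 min. For the late difference between vcs and WT, 2, they were 1 with RPM as deposited, 0 scaled to the reference genes and 1 to 2 leaving out a replicate. For that between vcs sov and sov, 0, they were 1 as deposited, 1 after centring, 1 in edgeR, 2 under the replicate block and 0 to 2 leaving out a replicate. For slopes of vcs sov against vcs, 2, they were 4 as deposited, 1 with 20 reference genes, 0 over 0 to 60 min, 4 over 0 to 240 min and 0 to 2 leaving out a replicate. For the slope interaction, 0, they were 1 on nuclear RPM, 3 as deposited, 2 with 200 reference genes and 1 over 0 to 240 min. The cause was not tested.

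Samples of different genotypes at 0 min share only a number: their deviations under equal numbers correlated at −0.105 to 0.444. With that number as a replicate block, no call of the 8 genes at 0 min changed, and DIN10 (0.28, limma adjusted p = 0.0357) and TPS9 (0.25, 0.0397) passed in the slope interaction, a count of 2. The block for the course changed no time call other than those given in the results. Depth limits BCAT2 most, with 9 reads in its lowest library.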

Other observations

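For each of the 8 genes, the 3 genes whose deviations from the group means were most like its own were looked up. Over all libraries, which share normalization and, within courses, a treated batch, the deviations of BCAT2 were most like those of ALDH6B2 (r = 0.80), a gene of valine breakdown, BGAL4 (0.77) and AT5G57655 (0.75). Those of DIN10 were most like those of BXL1 (0.83), STP1 (0.74), a hexose transporter gene, and GDH1 (0.73), a glutamate dehydrogenase gene. ASN1 had AT5G02160 (0.74), AT2G31810 (0.71) and MCCA (0.69), which acts in leucine breakdown. SEN1 had AT5G24490 (0.82), CCL (0.76) and UBC5 (0.69), and TPS11 had J11 (0.70), EMB3142 (0.65) and PPa4 (0.65). TPS8 had AT2G20670 (0.68), TPS9 (0.68) and AT5G18630 (0.62), TPS9 had AT3G15450 (0.71), AT3G49790 (0.70) and TPS8 (0.68), and TPS10 had CRY2 (0.64), AT5G22760 (0.60) and AT3G52250 (0.60). These were looked up after the data had been seen, over 14878 genes, and are given as values.

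Of 9 genes for bZIP factors of the C and S1 groups, 5 were listed at 0 reads in every library: bZIP1, bZIP2, GBF6 (bZIP11), bZIP44 and BZIP53. The C group genes BZIP9, BZO2H1, BZIP25 and BZO2H3 had reads in every library, between 34148 and 113954 in total. S1 factors are known to act in sugar starvation, but a listed 0 for all of them in every library says nothing of their expression.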
